A study of Gallus gallus with 2 samples.

Results

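The genes described here encode NF-kB subunits (REL, RELA, NFKB1, NFKB2), an inhibitor that retains them in the cytoplasm (NFKBIA), the kinases that release them (IKBKB, CHUK) and a ubiquitin ligase upstream of those kinases (BIRC2). They were taken as all probe sets whose gene symbol in the array's platform annotation is one of these 8 symbols. This gave 15 of 38535 probe sets, for 8 of 13009 named genes. Of the 8 genes, 7 had at least 1 probe set above a signal floor of 98.2, the level under which dim signals were set equal because they have no reliable order, and count as measured. RELA was the exception.

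The samples were 2 cultures of DT40 cells, which are B cells grown from a lymphoma of the chicken bursa. In the H2A.Z-1 KO cells the gene of the histone variant H2A.Z-1 was lost and the remaining H2A.Z-1 transgene was switched off by tetracycline. In the H2A.Z-2 KO cells the H2A.Z-2 gene was knocked out constitutively. Tetracycline was given to both cultures, at 2 µg/ml for 72 hours, and total RNA of each was hybridised to 1 Affymetrix array. The labels do not say whether either line is a single clone. Each genotype had 1 array, so neither a replicate error nor a test can be given, and precision is limited by the number of arrays. No wild-type array was analysed here, so a difference cannot be assigned to one knockout or the other. In such bulk RNA, fewer cells that express a gene and less RNA per cell cannot be told apart.

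NF-kB dimers are held inactive by IkB proteins. A receptor signal activates the IkB kinases, IkB is phosphorylated, ubiquitinated and degraded by the proteasome, and the dimers enter the nucleus. Vertebrate B cells use this route downstream of the antigen receptor and of CD40 for survival and proliferation. In a second, non-canonical route the kinase encoded by CHUK drives processing of the NFKB2 precursor. Chicken REL is the cellular counterpart of the oncogene carried by an avian retrovirus that transforms lymphoid cells. Gene roles given below are otherwise those described in human and mouse.

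Values were linear MAS5 signals, and the deposited numbers had a 2% trimmed mean of 500.1 on both arrays. The H2A.Z-1 transcript (H2AFZ) gave 615 in H2A.Z-1 KO cells and 27642 in H2A.Z-2 KO cells. The H2A.Z-2 transcript (H2AZ2) gave 20911 in H2A.Z-1 KO cells and 42.1 in H2A.Z-2 KO cells, so both arrays fitted their labels in direction. Of 11 B-cell marker genes on the array, 10 were above the floor in H2A.Z-1 KO cells and 9 in H2A.Z-2 KO cells, with summed signals of 82820 and 61350. Of the 10 measured, 5 were at least 2-fold higher in the H2A.Z-1 KO cells (CD79B, EBF1, CD72, CD74 and BTK) and 0 at least 2-fold lower. These made up 50%, against 6.67% of all named genes past 2-fold in either direction. EBF1 was under the floor in H2A.Z-2 KO cells, so the filter fixed its direction. The median log2 ratio of the 10 was 1.00. PAX5, LYN and IGLL1 were lower in the H2A.Z-1 KO cells, with log2 ratios of -0.68, -0.58 and -0.38. PAX5 rests on 1 dim probe set, at 127 in H2A.Z-1 KO cells and 203 in H2A.Z-2 KO cells. Its other probe sets were under the floor on both arrays. LYN and IGLL1 each include 1 probe set that was under the floor in H2A.Z-1 KO cells. Markers of other cell types were above the floor for 2 and 4 of 9 T-cell genes, 1 and 0 of 6 myeloid genes, 3 and 2 of 8 fibroblast or epithelial genes, and 1 and 2 of 4 erythroid or thrombocyte genes, with H2A.Z-1 KO given before H2A.Z-2 KO. The T-cell genes summed to 10416 and 8672, of which CD3D alone gave 9211 and 7509. Past 2-fold were CD247, with 916 in H2A.Z-1 KO cells and 302 in H2A.Z-2 KO cells, and CD5, under the floor at 34.2 in H2A.Z-1 KO cells and at 540.3 in H2A.Z-2 KO cells. CD3E, CD4, LCK and ZAP70 were under the floor on both arrays. The part of these markers in the differences below was not tested.

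At the floor used, no measured NF-kB member passed 2-fold between the knockouts, where the ratio of NFKB2 is only a bound. Of all 7977 named genes above the floor, 6.67% passed 2-fold, 2.87% with the higher and 3.8% with the lower signal in H2A.Z-1 KO cells. None of the 7 members did so in either direction. Which direction held more of all genes turned with the processing, with 261 higher and 248 lower when the brightness trend was removed, against 229 and 303 as reported. The log2 ratios, H2A.Z-1 KO over H2A.Z-2 KO, ran from -0.85 for NFKB1 to 0.39 for BIRC2. Their median was -0.20 over the 7 members and -0.06 over all named genes. REL and BIRC2 had the higher signal in H2A.Z-1 KO cells, and the other 5 the lower, as did 57.4% of all named genes. The median turned to 0.09 when probe sets that can match several transcripts were left out, which removed NFKB1, NFKBIA and CHUK.

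**Figure D1:**
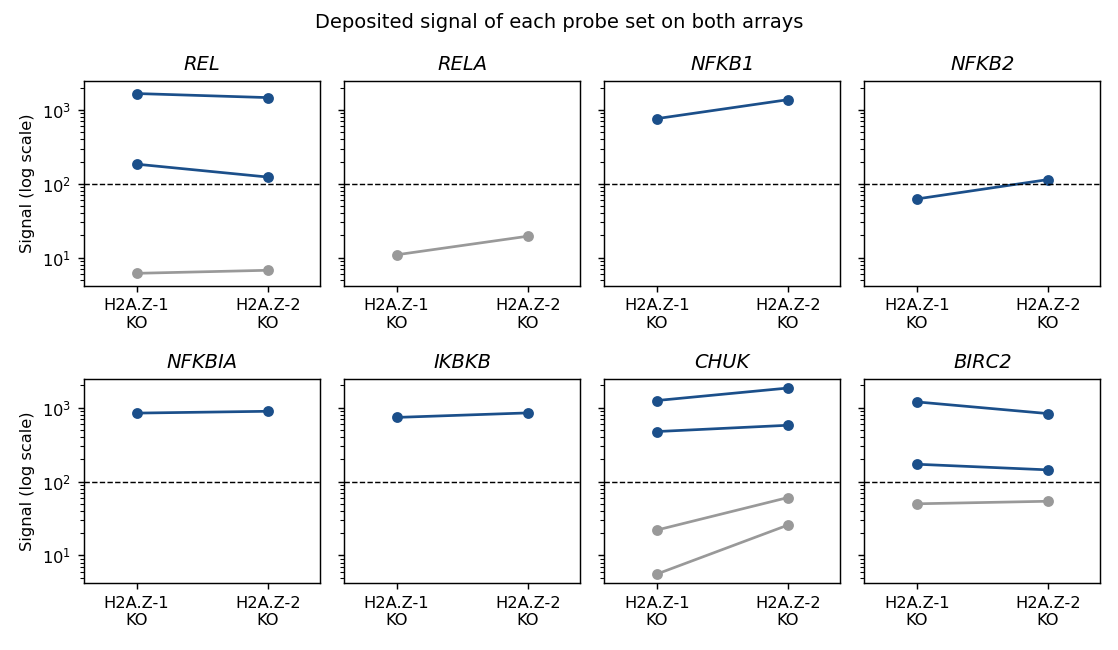
Deposited signal of every probe set of the 8 genes in H2A.Z-1 KO cells (left point) and H2A.Z-2 KO cells (right point), on a log axis; 1 line is 1 probe set. Blue probe sets were above the floor (dashed line, 98.2) on at least 1 array and grey ones on neither, as for the single RELA probe set.

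Among the subunits above the floor on both arrays, NFKB1 stood furthest from equality. NFKB1 encodes a precursor that acts as an IkB-like inhibitor and is processed to a DNA-binding subunit without a transactivation domain. Its 1 probe set gave 762 in H2A.Z-1 KO cells and 1375 in H2A.Z-2 KO cells. The signal was thus 1.81-fold lower in the H2A.Z-1 KO cells. A larger log2 ratio in size was found for 747 of the 7977 named genes, or 9.36%. NFKB2, under the floor in H2A.Z-1 KO cells, has only a bound and cannot be ranked against NFKB1. At the floor used, NFKB1 was the only one of the 7 measured members past 1.5-fold. Of all named genes 19.2% were, 7.56% with the higher and 11.6% with the lower signal in H2A.Z-1 KO cells. The suffix of its probe set marks a possible match to several transcripts.

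REL, the subunit with a strong transactivation domain that predominates in mature B cells, differed in the other direction. Its bright probe set gave 1666 in H2A.Z-1 KO cells and 1468 in H2A.Z-2 KO cells. A dimmer one gave 184 in H2A.Z-1 KO cells and 123 in H2A.Z-2 KO cells. Both were higher in the H2A.Z-1 KO cells, with log2 ratios of 0.18 and 0.58 and a mean of 0.38, which is 1.30-fold. Another probe set annotated as REL was far under the floor on both arrays, at 6.15 in H2A.Z-1 KO cells and 6.76 in H2A.Z-2 KO cells. Whether it represents the cellular gene or its viral counterpart could not be checked. Of all named genes, 34.1% lay further from 0 than REL.

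The log2 ratio of REL minus that of NFKB1 was 1.23. The signal of REL relative to that of NFKB1 was therefore 2.35-fold higher in the H2A.Z-1 KO cells than in H2A.Z-2 KO cells. This contrast was chosen after the values were seen. NFKB1 (-0.85) had the lowest ratio of the members, and REL (0.38) lay just under the highest, BIRC2 (0.39). A wide gap therefore follows from the choice of the pair. How many pairs of named genes lie this far apart was not counted. A constant scaling factor of an array cancels in it, and it stayed between 1.04 and 1.34 over the 7 alternatives that measured both genes. Median centring cannot change this contrast, and a floor on the 40th percentile also left it at 1.23. The contrast rests on 1 NFKB1 probe set and 2 REL probe sets. It describes an unequal difference between these arrays, not that either gene was the same in both lines.

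NFKB2 and RELA were dim. NFKB2 encodes the precursor of the non-canonical subunit. Its single probe set gave 62.4, under the floor, in H2A.Z-1 KO cells and 114 in H2A.Z-2 KO cells, at least 1.16-fold lower in the H2A.Z-1 KO cells. The log2 ratio of -0.22 moved to -0.87 at a floor on the 40th percentile, since the dim signal then counted at its deposited value. RELA encodes the other main transactivating subunit of the canonical route. Its single probe set gave 11.0 in H2A.Z-1 KO cells and 19.5 in H2A.Z-2 KO cells, both under the floor, and no fold is given. A probe set this dim does not show that the RELA transcript is absent from DT40 cells.

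The inhibitor gene NFKBIA lay closest to equality. NFKBIA encodes IkB alpha and is itself induced by NF-kB as a negative feedback. Its 1 probe set, which like that of NFKB1 has a suffix for several transcripts, gave 843 in H2A.Z-1 KO cells and 892 in H2A.Z-2 KO cells. The log2 ratio was -0.08, or 1.06-fold lower in the H2A.Z-1 KO cells, and 82.5% of named genes lay further from 0. Its ratio exceeded that of NFKB1 by 0.77 on the log2 scale, a 1.71-fold difference between the inhibitor and the subunit that was also chosen after the values were seen.

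Both catalytic subunits of the IkB kinase had slightly lower signals in H2A.Z-1 KO cells. IKBKB encodes the kinase subunit that acts on IkB in the canonical route. Its probe set gave 737 in H2A.Z-1 KO cells and 848 in H2A.Z-2 KO cells, a log2 ratio of -0.20 and 1.15-fold lower in the H2A.Z-1 KO cells. CHUK encodes the kinase subunit that acts in the non-canonical route. Its brighter probe set gave 1246 in H2A.Z-1 KO cells and 1840.1 in H2A.Z-2 KO cells, and its next one 474 in H2A.Z-1 KO cells and 577 in H2A.Z-2 KO cells. These log2 ratios of -0.56 and -0.28 averaged -0.42, or 1.34-fold lower in the H2A.Z-1 KO cells. The remaining CHUK probe sets were under the floor, with 22.0 and 5.59 in H2A.Z-1 KO cells and 60.7 and 25.7 in H2A.Z-2 KO cells, and so have no reliable order. When they were counted without a floor, the mean of CHUK moved to -1.07, past 2-fold.

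BIRC2 encodes a ubiquitin ligase that promotes canonical signalling and, with TRAF proteins, keeps the kinase of the non-canonical route unstable. Its brightest probe set gave 1195 in H2A.Z-1 KO cells and 830.0 in H2A.Z-2 KO cells, and a second gave 171 in H2A.Z-1 KO cells and 144 in H2A.Z-2 KO cells. Both were higher in the H2A.Z-1 KO cells, with log2 ratios of 0.53 and 0.25 and a mean of 0.39, which is 1.31-fold. The last was under the floor, at 49.9 in H2A.Z-1 KO cells and 54.1 in H2A.Z-2 KO cells. The ratio of BIRC2 exceeded that of CHUK by 0.81 on the log2 scale, a contrast also chosen after the values were seen. It ran from 0.73 to 1.29 over 7 alternatives and passed 2-fold on the brightest probe sets alone (1.09) and without a floor (1.29). The first of these rests on 1 probe set per gene. The second counts the CHUK probe sets under the floor, which have no reliable order.

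Apart from NFKB1, and from NFKB2, whose ratio is a bound, the members differed by about as much as single probe sets of 1 gene disagree, or by less. The pooled SD of log2 ratios between probe sets of the same gene was 0.36 over 3588 genes. NFKB1, CHUK, BIRC2 and REL exceeded it, that is 4 of 7 members, as did 36.4% of all named genes. This SD is that of single probe sets, whereas the ratios of CHUK, BIRC2 and REL are means of 2, which vary less. Log2 ratios of the 73 control probe sets that passed the floor averaged 0.02 with an SD of 0.18. In each of the 3 members with 2 probe sets above the floor, REL, CHUK and BIRC2, both probe sets had the same direction. None of these values measures the spread between cultures.

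**Figure D2:**
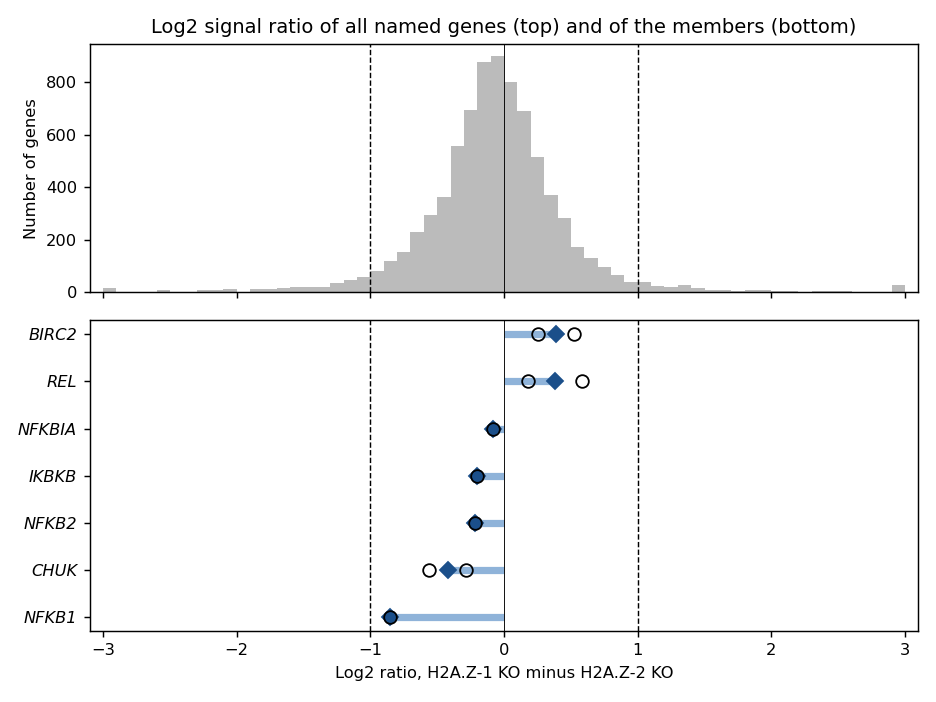
Log2 signal ratio, H2A.Z-1 KO over H2A.Z-2 KO, of all 7977 named genes as a histogram (top, values beyond 3 in size drawn in the end bins) and of the 7 measured members (bottom). Diamonds are gene means, open circles single probe sets above the floor and dashed lines 2-fold; NFKB1 at -0.85 and BIRC2 at 0.39 mark the ends of the range.

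The genes with signals most like NFKB1, by distance between the log2 signals on the 2 arrays, were ASPH, TXNDC15 and IRAK2, at 0.05, 0.06 and 0.07. ASPH gave 790 in H2A.Z-1 KO cells and 1375 in H2A.Z-2 KO cells. TXNDC15 gave 760 in H2A.Z-1 KO cells and 1433 in H2A.Z-2 KO cells. Likeness over 2 arrays places a gene near NFKB1 in brightness and ratio and nothing more.

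The rest of the pathway was described from a list of 74 other genes in 5 roles, of which 52 were on the array under these symbols and 47 were above the floor. Of the 47, 1 was at least 2-fold higher and 2 were at least 2-fold lower in the H2A.Z-1 KO cells, or 6.38% against 6.67% of all named genes. Their median log2 ratio was -0.02, against -0.06 over all named genes, and it was positive under median centring, quantile normalization and removal of the brightness trend. All 3 genes past 2-fold were adaptors or receptors.

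TRAF5, an adaptor of TNF-receptor family members including CD40, had the largest ratio of the list. Its bright probe set gave 2106 in H2A.Z-1 KO cells and 427 in H2A.Z-2 KO cells, 4.93-fold higher in the H2A.Z-1 KO cells. A second TRAF5 probe set was under the floor on both arrays, at 93.1 in H2A.Z-1 KO cells and 56.7 in H2A.Z-2 KO cells. The log2 ratio of 2.30 was 2.35 under median centring and stayed at 2.30 when the brightness trend was removed. It moved to 1.18 with quantile normalization and to 1.51 at a floor on the 40th percentile, still past 2-fold. That lower floor, 37.6, lets the second probe set into the mean.

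Both receptors past 2-fold were lower in the H2A.Z-1 KO cells. TNFRSF1B, the second TNF receptor, gave geometric mean signals of 141 in H2A.Z-1 KO cells and 386 in H2A.Z-2 KO cells, 2.74-fold lower in the H2A.Z-1 KO cells. Its 3 probe sets above the floor had log2 ratios from -1.82 to -1.01, and the mean moved to -0.34 at a floor on the 80th percentile. TNFRSF13B, a receptor of B-cell survival factors, gave 824 in H2A.Z-1 KO cells and 2138 in H2A.Z-2 KO cells, 2.59-fold lower in the H2A.Z-1 KO cells. In the same role BCL10, the adaptor that links the antigen receptor to the IkB kinases, had a log2 ratio of 0.52, within 2-fold. Over the 16 measured adaptors and receptors the median was -0.34, but it was 0.21 over the 9 that remained measured at a floor on the 80th percentile. Of the 16, 11 (68.8%) were below 0, against 57.4% of all named genes.

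The other NF-kB and IkB proteins were represented by 4 measured genes, all within 2-fold at the floor used, where the ratio of NFKBIE is only a bound. NKIRAS1 and NKIRAS2 encode Ras-like proteins that slow IkB degradation, and they lay on opposite sides. NKIRAS1 gave 755 in H2A.Z-1 KO cells and 1251 in H2A.Z-2 KO cells, a log2 ratio of -0.73, and NKIRAS2 had 0.35. NFKBIE, which encodes IkB epsilon, was under the floor in H2A.Z-1 KO cells and at 145 in H2A.Z-2 KO cells, at least 1.47-fold lower in the H2A.Z-1 KO cells. Its log2 ratio of -0.56 moved to -1.52, past 2-fold, when all its probe sets were counted without a floor. NFKBIZ, a nuclear IkB protein, had a log2 ratio of 0.24. RELB, NFKBIB, BCL3 and IKBKG are not analysed here.

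Kinases and their partners upstream of IkB went both ways within 2-fold, with 7 of 13 above 0 and a median of 0.10. Below 0 were 46.2% of these 13, against 57.4% of all named genes. TANK, an adaptor that binds TRAF proteins and the kinase TBK1, gave 1722 in H2A.Z-1 KO cells and 906 in H2A.Z-2 KO cells, 1.90-fold higher in the H2A.Z-1 KO cells. MAP3K8, a kinase held inactive by the NFKB1 precursor, had a mean log2 ratio of 0.53 from probe sets at -0.07 and 1.13. IRAK2, a kinase of Toll-like receptor signalling, gave geometric means of 794 in H2A.Z-1 KO cells and 1335 in H2A.Z-2 KO cells, 1.68-fold lower in the H2A.Z-1 KO cells. The 4 IRAK2 probe sets above the floor all had log2 ratios below 0, and another was under the floor on both arrays. TAB3, a partner of the kinase MAP3K7, had a log2 ratio of -0.39.

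Ubiquitin enzymes with their partners, and the machinery of IkB degradation, also stayed within 2-fold at the floor used. Of the 6 measured genes listed as ubiquitin enzymes or their partners, TNIP2 had the largest log2 ratio in size at -0.88. TNIP2, a partner of the inhibitor encoded by TNFAIP3, gave 154 in H2A.Z-1 KO cells and 283 in H2A.Z-2 KO cells. The deubiquitinase OTUD7B stood at -0.37, the conjugating enzyme UBE2N at 0.39 and the ligase ITCH at 0.24, ITCH turning to -0.19 at a floor on the 40th percentile. The 8 genes of IkB degradation had a median of 0.11, with 6 above 0. That left 25% below 0, against 57.4% of all named genes. UBE2D3, a conjugating enzyme, had a log2 ratio of 0.51 over 4 probe sets above the floor, and FBXW11, which recognises phosphorylated IkB, 0.35. UBE2D2 stood at -0.16. BTRC, the close relative of FBXW11, gave 56.6, under the floor, in H2A.Z-1 KO cells and 101 in H2A.Z-2 KO cells. It was thus at least 1.03-fold lower in the H2A.Z-1 KO cells. Its log2 ratio of -0.05 had a positive sign under median centring and removal of the brightness trend. At a floor on the 40th percentile it moved to -0.84.

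**Figure D3:**
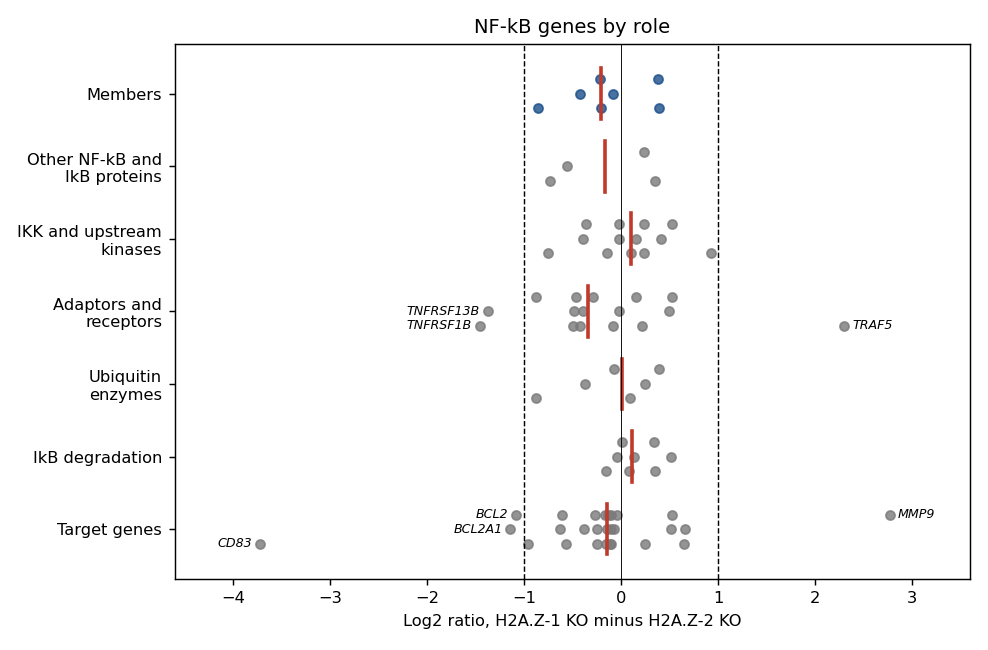
Log2 signal ratio, H2A.Z-1 KO over H2A.Z-2 KO, of the 7 measured members, the 47 other pathway genes by role and 27 target genes. One point is 1 gene, red bars are medians, dashed lines mark 2-fold and genes past it are named; no member lies outside the dashed lines.

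Genes widely described as transcribed under NF-kB were taken from a list of 61, of which 52 were on the array and 27 above the floor. The list was written with earlier results of these data known, so its shares are a description only. Of the 27, 1 was at least 2-fold higher and 3 were at least 2-fold lower in the H2A.Z-1 KO cells, or 14.8% against 6.67% of all named genes. At a floor on the 80th percentile the share was 5.88%, 1 of 17, against 4.44% of all named genes. Of the 27, 8 were above the floor on 1 array only, so the filter fixed their direction, and 3 of these 8 (CD83, BCL2A1 and MMP9) are among the 4 past 2-fold. The median log2 ratio of the 27 was -0.14, against -0.06 over all named genes, and is given as a description only. The B-cell markers described above also differed, 5 of 10 by at least 2-fold, against 6.67% of all named genes. Among these 5, EBF1 was above the floor on 1 array only. The part of the markers in the receptor and target differences was not tested. Such genes also answer to other transcription factors, and mRNA levels do not measure NF-kB activity.

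Survival genes were among the target genes past 2-fold. BCL2, which blocks apoptosis, gave geometric means of 416 in H2A.Z-1 KO cells and 880 in H2A.Z-2 KO cells, 2.11-fold lower in the H2A.Z-1 KO cells. Its 3 probe sets had log2 ratios from -1.24 to -0.90, and the mean moved to -0.48 at a floor on the 80th percentile. BCL2A1, a related survival gene, had probe sets at 23.5 and 37.8 in H2A.Z-1 KO cells, under the floor, and at 185 and 253 in H2A.Z-2 KO cells. It was at least 2.20-fold lower in the H2A.Z-1 KO cells, and its log2 ratio of -1.14 moved to -0.94 when the brightness trend was removed. BCL2L1, of the same family and chosen after its value was seen, had a log2 ratio of 0.25.

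CD83, a marker of activated lymphocytes, was under the floor at 45.7 in H2A.Z-1 KO cells and at 1297 in H2A.Z-2 KO cells, at least 13.2-fold lower in the H2A.Z-1 KO cells. MMP9, a secreted protease, lay on the other side. It gave 672 in H2A.Z-1 KO cells and 61.3, under the floor, in H2A.Z-2 KO cells, at least 6.84-fold higher in the H2A.Z-1 KO cells. CXCR5, a follicular homing receptor, gave 155 in H2A.Z-1 KO cells and 14.9, under the floor, in H2A.Z-2 KO cells, at least 1.58-fold higher in the H2A.Z-1 KO cells. Single probe sets reported CD83, MMP9 and CXCR5, and that of CD83 can match several transcripts. At a floor on the 80th percentile the log2 ratio of CD83 moved from -3.72 to -1.19, and that of MMP9 from 2.77 to 0.24, within 2-fold.

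The members were last set beside their neighbours in the gene order of assembly GRCg7b, taking the nearest measured named gene on each side. This comparison was added after the member values were seen. Of 14 neighbours, 1 passed 2-fold, where 6.67% of all named genes did, so the count is near that share. It was BCL11A, which encodes a zinc-finger transcription factor of early B-cell development and neighbours REL. All 4 BCL11A probe sets were above the floor in H2A.Z-1 KO cells, from 122 to 3729, and under it in H2A.Z-2 KO cells, from 9.32 to 68.6. BCL11A was at least 8.23-fold higher in the H2A.Z-1 KO cells, whereas REL was 1.30-fold higher and PUS10, on its other side, had a log2 ratio of -0.30. The log2 ratio of BCL11A lay between 2.42 and 5.25 over 8 alternatives.

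Around BIRC2 both neighbours shared the member's direction, within 2-fold, with log2 ratios of 0.66 for TMEM123 and 0.38 for CCDC82. Around IKBKB, at -0.20, both lay on the other side, with 0.46 for PLAT and 0.09 for VDAC3. The neighbours of REL, NFKB1 and NFKB2 lay on opposite sides of 0. For NFKBIA, PSMA6 had -0.12 and RALGAPA1 0.01, the latter close to 0. For CHUK, BKJ had -0.14 and ERLIN1 0.0004, the latter in effect equal on both arrays. BKJ was under the floor in H2A.Z-1 KO cells, so the filter fixed its direction. Beside NFKB1, MANBA had -0.32 and the B-cell adaptor gene BANK1 0.13. BANK1 was dim, with 107 in H2A.Z-1 KO cells and a value under the floor in H2A.Z-2 KO cells, so the filter fixed its direction as well.

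**Figure D4:**
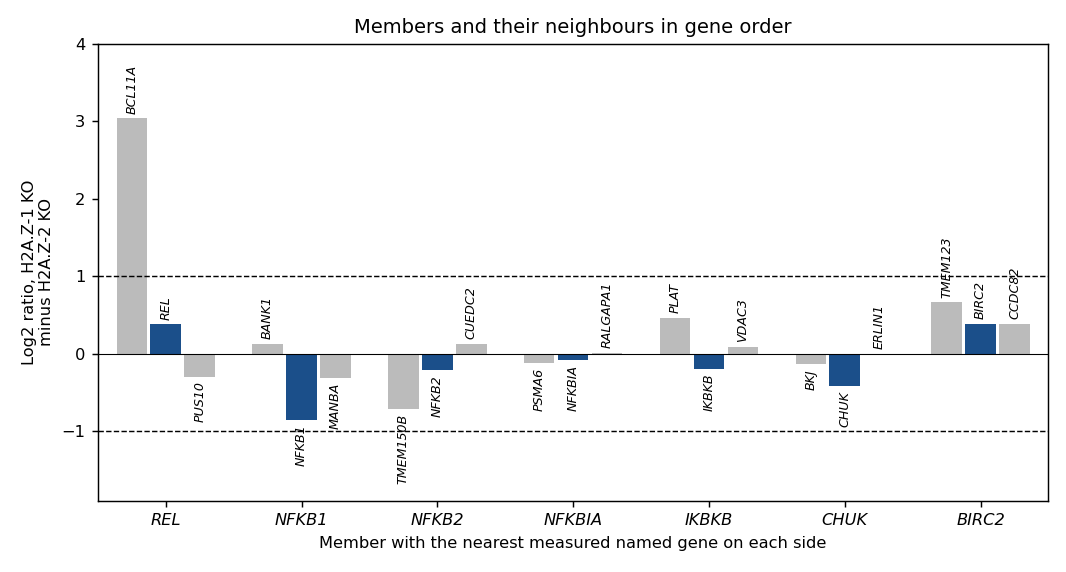
Log2 signal ratio, H2A.Z-1 KO over H2A.Z-2 KO, of the 7 measured members (blue bars) and of the nearest measured named gene on each side (grey bars); dashed lines mark 2-fold. BCL11A beside REL is the only bar past 2-fold, at 3.04.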

How the data were processed

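Total RNA of 2 DT40 cultures was labelled with biotin and hybridised to Affymetrix arrays, per the labels' protocols. The authors deposited 1 linear signal intensity per probe set and array, which MAS5 produced per the submitters' processing notes. The version of MAS5 is not stated there. Both arrays had equal trimmed means, and such scaling would hide any overall difference in RNA content.

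The 96 control probe sets were left out. All other probe sets, 38439 in number, set the floor at the 60th percentile of their signals (98.2), and lower signals were raised to it. Where all probe sets of a gene were under it in 1 group, the fold is a bound, written "at least". Log2 ratios, H2A.Z-1 KO over H2A.Z-2 KO, were averaged per gene across the probe sets that passed the floor on either array, and 2-fold was the threshold. Members were matched by platform symbol. Of all 38535 probe sets, 27178 had 1 symbol, 177 had several and 11180 had none. Of the 27178, 26863 were matched by gene identifier to a RefSeq gene table of GRCg7b. No genome build of the array is stated in the sources, and coordinates are left out.

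The members and lists were chosen with earlier results of these data known. Named were all members and, of each role and of the target list, genes past 2-fold and the 2 most distant on each side. Alternatives were 3 scalings (median centring, quantile, lowess), a lower and a higher floor (40th and 80th percentile), log2 of the signal plus 1 with no floor, other thresholds (1.5-fold, 3-fold), leaving out probe sets with a suffix for several transcripts, using only the brightest probe set, and list means. The procedure was tested on simulated data, with differences past 2-fold placed only in bright genes with 1 measured probe set. That test does not cover dim genes, genes with several probe sets or smaller differences. Python 3.11.15, numpy 2.4.6, pandas 2.3.3 and statsmodels 0.14.6 were used.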

Additional observations from a re-analysis of the deposited data

How the results depend on the processing

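No paired analysis was possible because each genotype has 1 array. The direction of each of the 7 measured members was kept under every alternative that measured it. For NFKB1, NFKBIA and IKBKB, with 1 probe set each, only the scalings could have changed it. NFKB2 was above the reported floor on 1 array only, so that floor fixed its direction. Members past 2-fold numbered 0, but 1 without a floor (CHUK) and 1 at a threshold of 1.5-fold (NFKB1). Other pathway genes past 2-fold numbered 3 of 47, and 8 of 52 without a floor, 8 of 47 at 1.5-fold and 1 of 47 at 3-fold. The 8 of 52 were 15.4%, against 22.1% of all named genes without a floor. Past 1.5-fold were 19.2% of all named genes. Target genes past 2-fold numbered 4, and 8 at a floor on the 40th percentile, 1 with it at the 80th, 16 without a floor, 9 at 1.5-fold and 2 at 3-fold. Of all named genes 532 passed 2-fold, and 953 at a floor on the 40th percentile, 225 with it at the 80th, 2875 without a floor, 1532 at 1.5-fold and 202 at 3-fold. The 225 were 133 higher and 92 lower in H2A.Z-1 KO cells. As shares of the measured genes, targets past 2-fold made up 19.0% (all named genes 8.87%) at the lower floor, 5.88% (4.44%) at the higher and 30.8% (22.1%) without one. A lower floor admits dimmer probe sets by its construction. For single genes, 33 of 243 values under an alternative moved by more than the pooled SD of 0.36. Dim signal limits NFKB2 and RELA most, and the single array per genotype limits every value.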
